A study of Mus musculus with 8 samples.

Results

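Stromal progenitor nuclei that lacked the Dpp4 Pi16 gene programme were drawn from a single-nucleus RNA-sequencing survey of visceral white adipose tissue in mice. A barcode entered the class when it held at least 1000 unique molecular identifiers (UMIs), at least 300 detected genes and at most 5% mitochondrial UMIs, and when at least 3 of the 6 progenitor genes Pdgfra, Dcn, Col3a1, Lama2, Abca8a and Fbn1 were detected. The UMI sum of Pdgfra, Dcn and Col3a1 had to exceed that of an adipocyte trio (Plin1, Plin4, Cidec), a macrophage trio (Adgre1, Csf1r, Mertk) and an endothelial trio (Flt1, Ptprb, Cyyr1). Barcodes with 2 or more of the mesothelial genes Msln, Muc16, Upk3b and Nxph1 were left out, as were those with 2 or more of Pi16, Dpp4, Sema3c, Anxa3, Efhd1 and Creb5. These steps left 6441 of 77987 nuclei, or 8.26%. Another 10264 nuclei passed the same steps but carried 2 or more of the 6 Dpp4 Pi16 genes, and these served as the comparison class of progenitors. The choice rests on transcripts detected in the same nuclei, so the 25 genes named in the rule are given below as levels without a test.

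The survey held 8 libraries, 1 mouse each, in 4 groups of 2. Mice of genotype p21+/mCherry received a standard diet or a high fat diet. Mice of genotype p21+/mCherry-Tert and p21+/mCherry-TertCi received the high fat diet. All 8 mice therefore carried 1 p21 allele with an mCherry insertion, and there was no group on standard diet with either Tert allele and no group without the insertion. The labels do not spell out TertCi and give neither age nor sex. Tissue was snap frozen, nuclei were released by douncing and sorted as DAPI-positive events, and mice were handled in batches of 2 whose membership is not recorded. The groups are called standard diet, mCherry HFD, Tert HFD and TertCi HFD here, the mice of each group are called mouse 1 and mouse 2 in the order of their label numbers, and values are listed in that order.

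Adipose tissue holds fibroblast-like progenitors that express the PDGF receptor Pdgfra and the proteoglycan decorin. A reticular, interstitial population marked by Dpp4 and Pi16 is regarded as the more multipotent, and another population nearer to vessels and adipocytes, often marked by Col15a1, Icam1 or Pparg, as further along the path to adipocytes. Both lay down collagens, laminins and matricellular proteins, store latent TGF-β in that matrix, and exchange BMP, Wnt and growth factor signals with adipocytes, vessels and immune cells. In obesity the stroma of visceral fat is known for fibrosis and for reduced formation of new adipocytes. Tert encodes the catalytic subunit of telomerase, and p21, the product of Cdkn1a, is a cell cycle inhibitor that marks stressed or senescent cells.

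Libraries held between 23378488 and 139749876 UMIs in all, of which 33.8% to 81.3% lay in barcodes that passed the depth steps, and between 3233 and 21996 such nuclei. The class held 353 to 1409 nuclei per library with 710153 to 6425777 UMIs, and its median nucleus held 1653 to 3798 UMIs against 2042 to 6481.5 in Dpp4 Pi16 nuclei. Pairs of libraries shared 4 to 96 passing barcodes, at most 0.699% of the smaller library. The inserted transcripts could not check the labels in this class. No member nucleus of any library held an mCherry UMI. Tert had 2 and 6 UMIs over members with standard diet, 65 and 13 in mCherry HFD, 21 and 1 in Tert HFD and 11 and 6 in TertCi HFD, so the libraries labelled Tert and TertCi were not the highest. Cdkn1a counts were as low, with 4 and 4 UMIs, 47 and 10, 13 and 1, and 5 and 3 in the same order. Cdkn1a was called lower in TertCi HFD than in mCherry HFD (log2 -1.72, SE 0.59, edgeR adjusted p = 0.0498), a call lost with DESeq2, with DESeq2 size factors, with no filter on low counts and without any 1 of the 8 libraries (edgeR adjusted p between 0.0737 and 0.424 in the fits without a library). Its mCherry HFD level of 7.31 and 7.0 CPM, with CPM as given below, lay under the 25.2 and 34.0 CPM of barcodes of 10 to 100 UMIs.

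The markers given for the class were then checked in its nuclei. Levels are given as CPM, the UMIs of a gene summed over the member nuclei of a library and scaled to a total of 1000000, and the mean over 8 libraries is given. Bmper, a secreted regulator of BMP signals, stood at 860 CPM in members, 504 in Dpp4 Pi16 nuclei and 224 over all other nuclei. Col15a1, a basement membrane collagen, stood at 332, 193 and 201 CPM. Among rule genes Pdgfra reached 286 CPM against 224 in Dpp4 Pi16 nuclei, Dcn 1025 against 869 and Abca8a 1061 against 655. Barcodes of 10 to 100 UMIs, which mostly hold free RNA, gave 220 CPM for Bmper and 222 for Col15a1, so Col15a1 in members lay only moderately above the free RNA of the suspension. On the other side, Limch1 stood at 62.6 CPM in members and 439 in Dpp4 Pi16 nuclei, Opcml at 213 and 1037, and the complement regulator Cd55 at 63.9 and 304. Dpp4 itself was left at 25.7 CPM against 311 and Pi16 at 3.70 against 64.8, which the rule fixed.

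**Figure D1:**
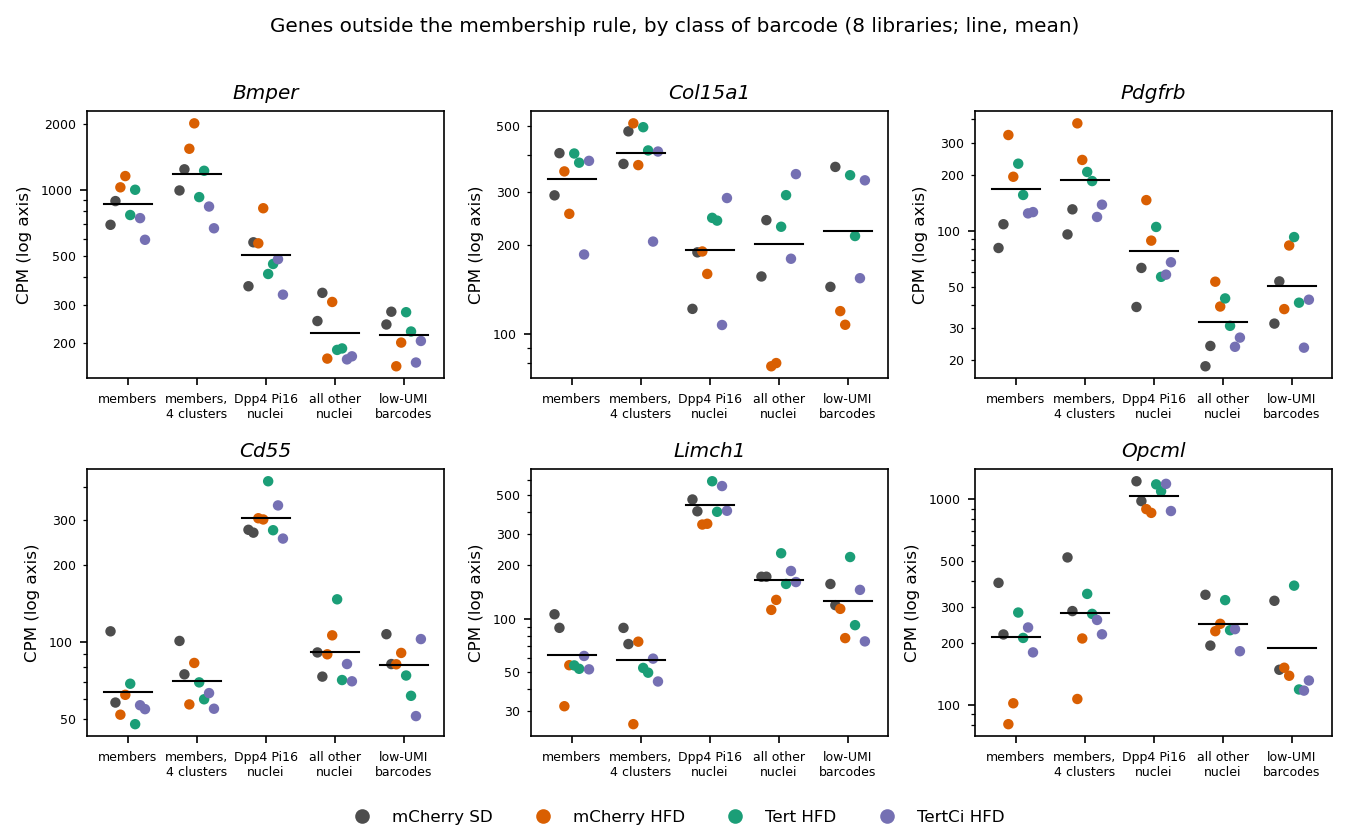
Level of 6 genes outside the rule (CPM, log axis) in member nuclei, members of the 4 progenitor clusters described next, Dpp4 Pi16 nuclei, all other nuclei and low-UMI barcodes; points are the 8 libraries, coloured by group, and lines are means. Bmper and Col15a1 have means of 860 and 332 CPM in the member nuclei, above the Dpp4 Pi16 nuclei, and Limch1 and Opcml are highest in the Dpp4 Pi16 nuclei.

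The class is bounded by detection, and levels differed across both bounds and within them. The 1477 members with exactly 3 of the 6 progenitor genes averaged 484 CPM of Bmper, and the 1602 nuclei left out with 2 of 6 averaged 218.5 CPM at a similar median depth (1805 and 1837 UMIs). The 4964 members with 4 or more averaged 950.2 CPM. At the other bound, 4141 of the 6441 members had 1 of the 6 Dpp4 Pi16 genes detected and 247.1 CPM of Opcml, against 141.9 CPM in the 2300 with none, 411.7 in the 3639 nuclei with 2 of 6 and 1336 CPM in the 6625 with 3 or more. Members were also shallower, at a median of 2529 UMIs with 1 gene detected against 3105 with 2 and 4005 with 3 or more. Depth thus moved with the split between both classes, and its part in the split is given with the shares below.

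Clustering of the 6441 members gave 16 clusters, and 4 of these, 4362 nuclei or 67.7%, showed only a minority of any other lineage's markers raised. Of the others, 8 showed raised macrophage (657 and 387 nuclei), pericyte or smooth muscle (289), adipocyte (164), mesothelial (2.27% of members), endothelial (119), B cell (72) or T cell (67) markers beside the progenitor genes. The adipocyte cluster and the B and T cell clusters also had raised macrophage markers, and the mesothelial cluster raised adipocyte markers. Another 4, of 116, 43, 12 and 7 nuclei, showed raised markers of 1 to 3 other lineages and came mostly from 1 library each, the one of 116 wholly from standard diet mouse 2. The 4 clusters held 61.1% and 64.1% of members with standard diet, 52.5% and 45.7% in mCherry HFD, 73.4% and 75.6% in Tert HFD, and 84.3% and 84.1% in TertCi HFD. One of the 4, of 872 nuclei, drew 73.2% of its nuclei from mCherry HFD mouse 1 and held 45.3% and 38.9% of mCherry HFD members but at most 2.24% in any other library. The largest clusters, of 1576 and 1504 nuclei, held 0.284% to 1.95% of the members of an mCherry HFD library and 10.1% to 56.0% elsewhere. Among the leading genes of the one of 1576 were Tll2, Shisa6, Colgalt2, Amph, Dchs2 and Thsd7a, whose differences between groups are given below. The one of 1504 had 10 genes of the Dpp4 programme raised, of a list of 20, and Opcml among its leading genes. Clusters were set apart without that list. The cluster of 1504 held 43.8% and 51.0% of members with standard diet and 0.781% and 1.95% in mCherry HFD. Because these clusters were defined by the same genes, their sizes are not read as a change in cell types. Values over the 4 clusters are given beside the main ones as a description, and the choice of the 4 was made after the data had been seen.

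Markers of other cell types moved with the groups. The 14 adipocyte markers, 3 of them in the rule, summed to 1128 and 1517 CPM in members with standard diet, 297 and 398 in mCherry HFD, 903 and 989 in Tert HFD, and 1068 and 952 in TertCi HFD. In low-UMI barcodes the same sums were higher, at 4591 and 8287 CPM with standard diet, 1449 and 1628 in mCherry HFD, 5351 and 4538 in Tert HFD, and 7946 and 7315 in TertCi HFD, with mCherry HFD lowest in both. The rule limits those 3 genes in members, so part of this gap was set by it. The 12 macrophage markers, 3 of them in the rule, summed to 1452 and 977 CPM, 2431 and 3155, 1728 and 1053, and 918 and 803 in the same order of groups. Inside the 4 clusters the macrophage sums were between 333 and 1051 CPM, highest in mCherry HFD mouse 2, and the adipocyte sums ran from 168 CPM in mCherry HFD mouse 1 to 1341 in standard diet mouse 2. Endothelial markers (9 genes, 3 in the rule) stayed between 241 and 398 CPM, the 8 pericyte and smooth muscle markers between 117 and 708, and the 8 mesothelial markers (4 in the rule) between 104 and 507. The 7 T and NK cell markers summed to 130 and 143.5 CPM in mCherry HFD and 28.2 to 63.7 elsewhere, and the 5 Schwann cell markers to 311 and 265 CPM in mCherry HFD and 430 to 754 elsewhere. The 20 genes of the Dpp4 programme, 6 of them in the rule, summed to 1632 and 1370 CPM with standard diet, 764 and 932 in mCherry HFD, 1300 and 1014 in Tert HFD, and 1277 and 1180 in TertCi HFD. The rule allows a member at most 1 of those 6 genes. The median member held 1703.5 and 1979 UMIs with standard diet and 3798 and 2199 in mCherry HFD. The part of this limit and of depth in the sums was not tested. In low-UMI barcodes the sums were higher, at 2236 and 1638, 2029 and 1787, 2703 and 1315, and 1493 and 1427 CPM. Of the 10 programme genes tested outside the rule, 1 rose and 6 fell with diet (median -0.97), where 13.9% of all genes rose and 9.10% fell. Opcml, Limch1 and Pcsk6 were among those that fell. Of the 6, only 1 met the criteria on level and on low-UMI barcodes that are given with the processing. Under a stricter membership rule (4 progenitor genes and no Dpp4 Pi16 gene) the Opcml difference was -1.02 and not called. No marker of these lists was at 0 over the members. The part of these nuclei and of free RNA in the differences between groups was not tested.

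The genes that set members apart from Dpp4 Pi16 nuclei of the same library are a description, since the same cells were divided by their transcripts. Among non-rule genes the highest median ratio was for Egflam, a pikachurin-type matrix protein, at 129.1 CPM against 40.05 (median log2 ratio 1.60). Pde11a, a cyclic nucleotide phosphodiesterase, followed with 227.2 against 78.57 CPM, and then Spon1 with 145.8 against 47.87. Further down, after Myh11, Gria4 and Notch3, came Cyp7b1, an oxysterol hydroxylase, with 146.9 against 58.46. The PDGF-B receptor Pdgfrb stood at 169 CPM against 78.04. Several leading genes are contractile or pericyte genes, and not all of them are carried by the 4 progenitor clusters. Myh11, smooth muscle myosin, stood at 87.86 CPM in members but 30.65 in the 4 clusters, below its 35.66 CPM in Dpp4 Pi16 nuclei. Adgrl3 stood at 97.36 CPM in members and 9.179 in the 4 clusters, while Notch3 kept 86.21 of 108.8 CPM there and Pdgfrb was at 187.5.

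Against all other nuclei of the same libraries, members stood highest for Pde11a and for the metalloprotease Pappa, which cleaves IGF-binding proteins (90.19 against 17.15 CPM). The complement component C7 stood at 1003 against 159.1 CPM. Amph, encoding the membrane-curving protein amphiphysin, stood at 143.5 against 23.17 CPM. The collagen VI chains Col6a6 (269.3 against 50.68 CPM) and Col6a5 (339.8 against 63.92) were in the same range, as were the epithelial growth factor Fgf7 (121.1 against 21.09) and the oestrogen sulfotransferase Sult1e1 (168.5 against 32.04). None of these genes was used by the rule.

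No difference between groups in the size of the class was detected. Its share of all passing nuclei was 8.32% and 7.31% with standard diet (mean 7.82% ± 0.718, SD, n = 2), 6.41% and 11.3% in mCherry HFD (8.87% ± 3.48), 8.45% and 10.9% in Tert HFD (9.69% ± 1.74), and 9.67% and 9.28% in TertCi HFD (9.47% ± 0.273). All 4 groups lay within the spread of the mCherry HFD pair, and an exact permutation test of the F statistic over the 4 groups gave p = 0.781 (Benjamini-Hochberg adjusted p = 0.962 over the pair of shares tested). Among progenitors, members were 36.7% and 42.9%, 33.7% and 44.7%, 32.2% and 54.1%, and 43.5% and 43.6% in the same order (exact permutation p = 0.962). The smallest p that this design can give is 0.00952, and a comparison of 2 groups cannot go below 0.333. With every nucleus thinned to 1000 UMIs before the rule was applied, members were 55.2% to 69.8% of progenitors, so the split between both classes of progenitors depends on depth, and the test over groups did not pass there either (exact permutation p = 0.771).

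**Figure D2:**
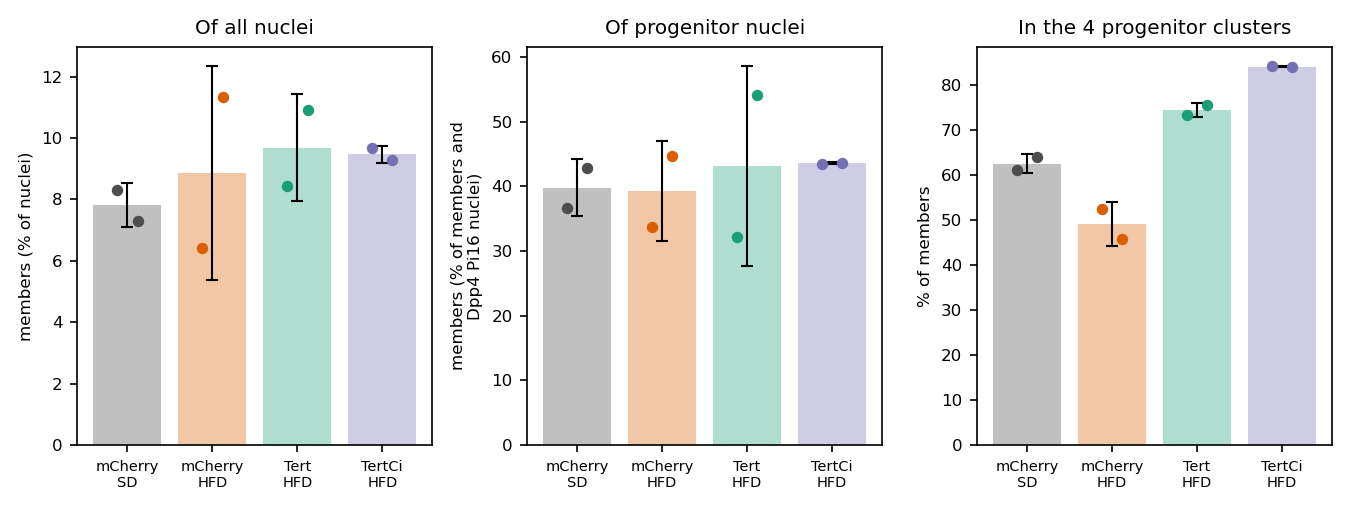
Share of all passing nuclei that are members, share of progenitors that are members, and share of members in the 4 progenitor clusters (percent); bars are group means, error bars SD of 2 libraries, points libraries. In the first panel the mCherry HFD pair spans all other libraries, and in the second the Tert HFD pair does. In the third the mCherry HFD libraries are lowest at 52.5% and 45.7%.

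Gene levels, in contrast with the share, differed widely between groups. The question of the first comparison is what high fat diet changed in mice of one genotype. Members carried more transcript of the scar matrix proteins periostin and tenascin C, of collagens I and VIII and of Runx2, and less of the TGF-β store Ltbp1, BMP6, angiopoietin 1, netrin 1 and the lipid transporters Abca6 and Abca8b. Of 12383 genes tested with edgeR, 2853 (23.0%) were called at an adjusted p under 0.05, 1726 (13.9%) higher and 1127 (9.10%) lower with high fat diet. Without mCherry HFD mouse 1 the count was 1233, and without mouse 2 it was 1546. Groups of 2 mice mean that the p-values measure the spread between these mice only. In sums over nuclei, fewer nuclei of a kind and less RNA per nucleus cannot be told apart.

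The other comparisons set Tert HFD and TertCi HFD against mCherry HFD. All 3 comparisons share the mCherry HFD pair, so a high or low value in those 2 mice moves all 3 together and their values are given side by side without a test of likeness. In Tert HFD 1813 genes (14.6%) were called, 640 (5.17%) higher and 1173 (9.47%) lower. In TertCi HFD 3260 genes (26.3%) were called, 1240 (10.0%) higher and 2020 (16.3%) lower. Leaving out mCherry HFD mouse 1, mCherry HFD mouse 2 or Tert HFD mouse 2 lowered the Tert count to 539, 570 and 702. Leaving out mCherry HFD mouse 1, mCherry HFD mouse 2, TertCi HFD mouse 1 or TertCi HFD mouse 2 lowered the TertCi count to 1443, 1741, 1282 and 1527. The median log2 difference over all genes tested was 0.02 for diet, -0.04 for Tert and -0.07 for TertCi.

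Matrix genes divided into a group that was high in mCherry HFD and one that was low there. Periostin (Postn), a matricellular protein of repairing and fibrotic tissue, stood at 52.4 and 42.9 CPM with standard diet, 339 and 262 in mCherry HFD, 176 and 92.9 in Tert HFD and 78.7 and 100.4 in TertCi HFD. Both mCherry HFD mice were above all others, and Postn rose with diet (log2 2.39, SE 0.26, edgeR adjusted p = 0.000142). It was lower in TertCi HFD (log2 -1.47, SE 0.24, edgeR adjusted p = 0.00132) and in Tert HFD (log2 -0.94, SE 0.24, edgeR adjusted p = 0.0231). The Tert call was lost without mCherry HFD mouse 1, mCherry HFD mouse 2 or Tert HFD mouse 2, at log2 values of -0.74, -1.09 and -0.67. Tenascin C (Tnc), a glycoprotein made during tissue repair, rested on 3 and 2 UMIs with standard diet and 347 and 29 in mCherry HFD, or 2.66 and 1.17 and 54 and 20.3 CPM. It rose with diet (log2 4.14, SE 0.69, edgeR adjusted p = 0.00146), with a fold that few UMIs hold up. Tert HFD had 8 and 4 UMIs and TertCi HFD 21 and 13, both called lower (log2 -3.45 and -2.05), and both calls were lost without mCherry HFD mouse 1 (log2 -2.44 and -1.08), the first also without Tert HFD mouse 1 (-2.44) and the second without TertCi HFD mouse 1 (-1.61).

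Among collagens, the short-chain collagen Col8a1 stood at 192 and 267 CPM with standard diet, 552 and 563 in mCherry HFD, 205 and 155 in Tert HFD and 232 and 153 in TertCi HFD. The mCherry HFD pair lay at about the same level and above every other library. Col8a1 rose with diet (log2 1.0, SE 0.20, edgeR adjusted p = 0.00375) and was lower in Tert HFD (log2 -1.42, SE 0.20, edgeR adjusted p = 0.00176) and TertCi HFD (log2 -1.23, SE 0.20, edgeR adjusted p = 0.00106), and these calls held under every alternative run. The collagen I chain Col1a2 stood at 270 and 319, 763 and 660, 593 and 358 and 302 and 304 CPM. It rose with diet (log2 0.99, edgeR adjusted p = 0.00281) and was lower in TertCi HFD (log2 -0.94, edgeR adjusted p = 0.00333; without TertCi HFD mouse 1 log2 -0.88, adjusted p = 0.0575), while the Tert difference of -0.38 did not pass. The rule gene Col3a1 stood at 877 and 838 CPM, 1908 and 1936, 1675 and 1025, and 796 and 952 in the same order, without a test. Of 24 collagens tested, 5 rose and 5 fell with diet, 5 were higher and 2 lower in Tert HFD, and 5 higher and 6 lower in TertCi HFD, with medians of 0.16, 0.43 and 0.05, beside 13.9% up and 9.10% down, 5.17% and 9.47%, and 10.0% and 16.3% of all genes. Over the 4 clusters the diet count was 6 up and 2 down and the Tert count 2 up and 3 down. There, 14.6% of the 10274 genes tested were called with diet (9.08% up and 5.54% down), 9.93% in Tert HFD (3.11% and 6.81%) and 19.6% in TertCi HFD (7.45% and 12.2%).

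The opposite pattern was seen in single chains of collagen VI and of the basement membrane. Col6a6, an alternative collagen VI chain, stood at 216 and 285 CPM with standard diet, 135 and 146.3 in mCherry HFD, 331 and 293 in Tert HFD and 401 and 348 in TertCi HFD. The mCherry HFD pair was below all 6 other libraries. Col6a6 fell with diet (log2 -1.11, SE 0.17, edgeR adjusted p = 0.000746) and was higher in Tert HFD (log2 1.36, SE 0.17, edgeR adjusted p = 0.00103) and in TertCi HFD (log2 1.72, SE 0.16, edgeR adjusted p = 9.56e-05) under every alternative run. The related chain Col6a5 went the other way with diet, from 202 and 275 to 479.5 and 497 CPM (log2 0.76, edgeR adjusted p = 0.0191), a call lost without standard diet mouse 1 (log2 0.60), mCherry HFD mouse 1 (0.79) or mouse 2 (0.71), or with nuclei thinned to 1000 UMIs (0.60). It was lower in TertCi HFD (log2 -0.79), a call lost without mCherry HFD mouse 1 (-0.81), mCherry HFD mouse 2 (-0.74) or TertCi HFD mouse 2 (-0.60). The laminin γ1 chain Lamc1, shared by most basement membrane laminins, stood at 759 and 783, 461 and 416, 828 and 598 and 817 and 756 CPM. Lamc1 fell with diet (log2 -1.10, edgeR adjusted p = 0.00075) and was higher in TertCi HFD (log2 1.14, edgeR adjusted p = 0.000643) and in Tert HFD (log2 0.90, edgeR adjusted p = 0.00461; without mCherry HFD mouse 2 log2 0.85, adjusted p = 0.0622). The Tert value was 0.43 in the 4 clusters, not called. The collagen IV chain Col4a4, present in specialised basement membranes, was higher in Tert HFD (116 and 99.98 CPM) and TertCi HFD (139.9 and 117) than in mCherry HFD (54.5 and 32.9), at log2 1.46 and 1.80, both held under every alternative. Of 32 other matrix genes tested, 7 rose and 10 fell with diet, 7 were higher and 5 lower in Tert HFD, and 11 higher and 9 lower in TertCi HFD. All genes tested gave 13.9% up and 9.10% down, 5.17% and 9.47%, and 10.0% and 16.3% in the same order. Over the 4 clusters the matrix counts turned to 10 up and 5 down with diet, 2 up and 10 down in Tert HFD and 6 up and 12 down in TertCi HFD. The shares of all genes there were 9.08% and 5.54%, 3.11% and 6.81%, and 7.45% and 12.2%.

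Proteases gave calls in both directions. Of 32 tested, 7 rose and 6 fell with diet, 5 were higher and 3 lower in Tert HFD, and 7 higher and 7 lower in TertCi HFD (over the 4 clusters 8 up and 4 down, 2 and 7, and 5 and 13 of 31). The shares of all genes were 13.9% up and 9.10% down with diet, 5.17% and 9.47% in Tert HFD, and 10.0% and 16.3% in TertCi HFD. Over the 4 clusters they were 9.08% and 5.54%, 3.11% and 6.81%, and 7.45% and 12.2%. The stromelysin Mmp11 stood at 3.55 and 4.7 CPM with standard diet and 51.8 and 30.8 in mCherry HFD (log2 3.05, SE 0.49, edgeR adjusted p = 0.00117), while Adamts19 went from 76.4 and 41.1 to 4.51 and 8.4 CPM (log2 -3.64, SE 0.49, edgeR adjusted p = 0.00047). Adamts3, a procollagen-processing protease, fell with diet (log2 -1.70, not called with a UMI floor set per library at -1.16) and stood at 82.9 and 43.6 CPM in Tert HFD and 75.1 and 68.5 in TertCi HFD against 28.6 and 29.4 in mCherry HFD. Its TertCi difference (log2 1.61) held under every alternative, and the Tert difference (log2 1.38) was lost without mCherry HFD mouse 1 (1.35) or Tert HFD mouse 1 (0.94). Tll2, a tolloid-like protease, stood at 4.44 and 28.8 CPM with standard diet, 5.29 and 2.1 in mCherry HFD, 64.5 and 81.7 in Tert HFD and 52.5 and 199 in TertCi HFD. Both Tert HFD mice and both TertCi HFD mice were above all 4 mCherry mice, by log2 4.19 over mCherry HFD (SE 0.75) and 5.07 (SE 0.74), and the diet difference of -2.26 did not pass (edgeR adjusted p = 0.0736).

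Among the binding proteins that store latent TGF-β, Ltbp1 gave the steadiest differences. Ltbp1, which anchors latent TGF-β in the matrix, stood at 606 and 634 CPM with standard diet, 240.1 and 223 in mCherry HFD, 738 and 521 in Tert HFD and 761 and 630.1 in TertCi HFD. It was lowest in both mCherry HFD mice, fell with diet (log2 -1.70, SE 0.17, edgeR adjusted p = 8.58e-05) and was higher in Tert HFD (log2 1.64, SE 0.17, edgeR adjusted p = 0.000563) and TertCi HFD (log2 1.88, SE 0.17, edgeR adjusted p = 6.66e-05), in all alternatives run. In the 4 progenitor clusters these differences were -1.38, 1.20 and 1.35. Ltbp4, of the same family, stood at 71 and 108, 37.7 and 25.9, 78.6 and 83.1 and 67.5 and 68.5 CPM, with log2 differences of -1.72, 1.48 and 1.34, all called. The last call was lost under the stricter membership rule (0.79). Ltbp2, which binds fibrillin but not latent TGF-β, ran the other way at 10.7 and 10.6, 36.4 and 25.2, 4.28 and 2.82 and 3.3 and 3.81 CPM (log2 -2.85 in Tert HFD and -2.88 in TertCi HFD on 16 UMIs in each of these pairs). Its diet call (log2 1.29) was lost without standard diet mouse 1 (1.35) or mouse 2 (1.17) or mCherry HFD mouse 1 (0.97), with DESeq2 (1.27), with thinned nuclei (1.11) and with a UMI floor set per library (1.38). Of 26 genes of the TGF-β pathway, 3 rose and 8 fell with diet, 4 were higher and 3 lower in Tert HFD, and 5 higher and 3 lower in TertCi HFD (over the 4 clusters 2 up and 4 down, 3 and 2, and 3 and 2 of 24). Over all genes the shares up and down were 13.9% and 9.10% with diet, 5.17% and 9.47% in Tert HFD, and 10.0% and 16.3% in TertCi HFD. In the 4 clusters these shares were 9.08% and 5.54%, 3.11% and 6.81%, and 7.45% and 12.2%.

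BMP and Wnt pathway genes that passed with diet were all lower. Bmp6, a ligand that drives mesenchymal differentiation, stood at 101 and 117 CPM with standard diet, 32.2 and 44.1 in mCherry HFD, 107 and 84.5 in Tert HFD and 162 and 172 in TertCi HFD. The mCherry HFD pair was below all other libraries, with a fall with diet (log2 -1.84, SE 0.20, edgeR adjusted p = 0.000138), a higher level in Tert HFD (log2 1.59, SE 0.20, edgeR adjusted p = 0.00119) and the highest in TertCi HFD (log2 2.47, SE 0.20, edgeR adjusted p = 5.2e-05), in every alternative run. Its level was 1.504 times that of low-UMI barcodes in TertCi HFD and under 1.5 times in Tert HFD. The part of free RNA in these differences was not tested. Gdf10, a TGF-β superfamily ligand, stood at 74.6 and 39.3, 11.7 and 9.8, 23.9 and 46.5 and 34.8 and 34.2 CPM and fell with diet (log2 -2.64, edgeR adjusted p = 0.00124). Of 20 BMP genes tested, 0 rose and 8 fell with diet (median -0.57), where 9.10% of all genes fell, and 5 were higher and 0 lower in Tert HFD and 6 higher and 1 lower in TertCi HFD. Of 27 Wnt genes, 0 rose and 7 fell with diet (median -0.56), 3 were higher and 1 lower in Tert HFD, and 5 higher and 0 lower in TertCi HFD. Of all genes, 13.9% rose with diet, 5.17% were higher and 9.47% lower in Tert HFD, and 10.0% higher and 16.3% lower in TertCi HFD. The non-canonical ligand Wnt5b stood at 33.8 and 42.3, 24 and 14, 54.7 and 42.2 and 53.7 and 58.6 CPM, with log2 differences of -1.20, 1.48 and 1.76, the first lost without mCherry HFD mouse 2 (-0.97). Over the 4 clusters these counts were smaller or turned: 1 rose and 3 fell of 19 BMP genes (median -0.09) and 2 rose and 2 fell of 21 Wnt genes (median -0.35) with diet, with 1 up and 1 down in Tert HFD for either list and 4 up and 5 down, and 2 and 2, in TertCi HFD. The shares of all genes there were 9.08% up and 5.54% down, 3.11% and 6.81%, and 7.45% and 12.2%.

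**Figure D3:**
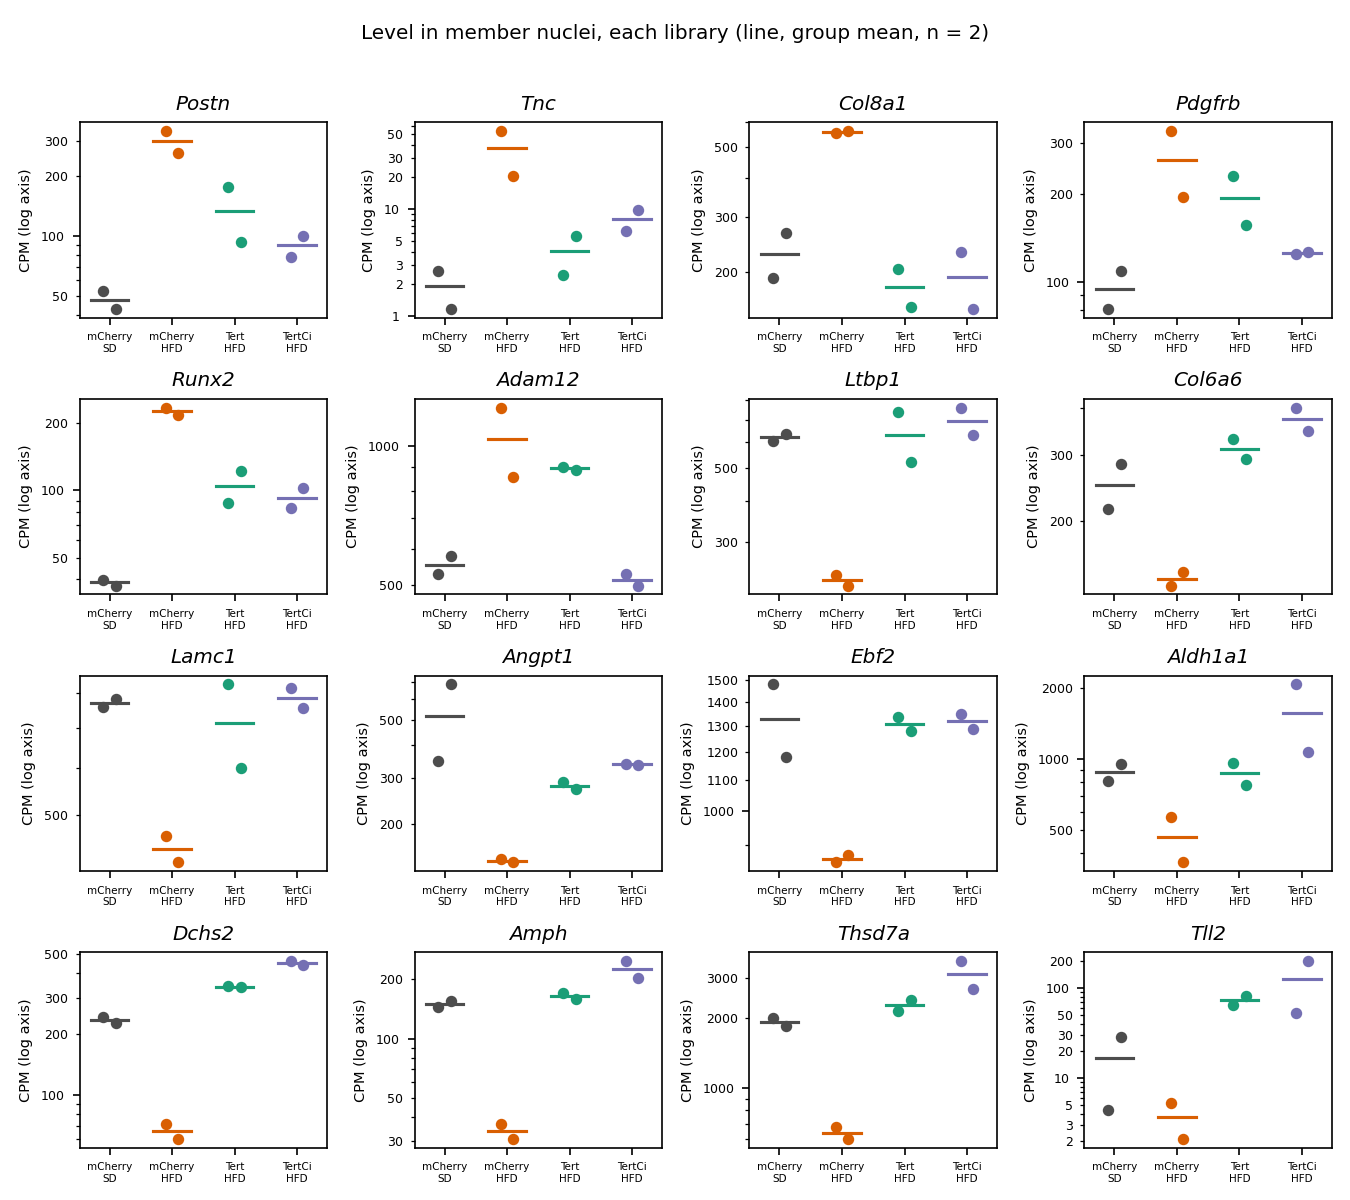
Level of 16 genes in member nuclei (CPM, log axis) by group; points are the 2 libraries of each group and lines their mean. Postn, Tnc, Col8a1 and Runx2 are highest in mCherry HFD, and Ltbp1, Col6a6, Dchs2 and Amph are lowest there.

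Transcription factors of the adipogenic and skeletal programmes changed in part. Runx2, the regulator of bone formation that is also expressed in fibroblasts, stood at 39.96 and 37.6 CPM with standard diet, 234 and 218 in mCherry HFD, 87.5 and 122 in Tert HFD and 83.2 and 102 in TertCi HFD. The mCherry HFD pair was highest and the standard diet pair lowest, with the other 4 libraries between them. Runx2 rose with diet (log2 2.27, SE 0.25, edgeR adjusted p = 0.000147) and in the 4 clusters by 2.09. It was lower in Tert HFD (log2 -0.94, SE 0.23, edgeR adjusted p = 0.0207) and TertCi HFD (log2 -1.0, SE 0.23, edgeR adjusted p = 0.00738), but the Tert call was lost without mCherry HFD mouse 1 (log2 -0.87), mouse 2 (-0.96) or Tert HFD mouse 1 (-0.53), and the TertCi call without mCherry HFD mouse 1 (-0.94) or TertCi HFD mouse 1 (-0.80). Ebf2, a factor of committed preadipocytes, stood at 1480 and 1182, 852 and 870, 1336 and 1281 and 1349 and 1289 CPM. Ebf2 fell with diet (log2 -0.92, edgeR adjusted p = 0.00529) and was higher in Tert HFD (0.82) and TertCi HFD (0.91), with all 3 calls lost without mCherry HFD mouse 1 (log2 -0.90, 0.80 and 0.90) and the Tert call also without mCherry HFD mouse 2 (0.85) or Tert HFD mouse 2 (0.74). In the 4 clusters the Tert and TertCi values of Ebf2 were 0.39 and 0.44, and under a stricter membership rule (4 progenitor genes and no Dpp4 Pi16 gene) its 3 values were -0.36, 0.40 and 0.54, none of these called. Rora, a nuclear receptor of the clock, was higher in TertCi HFD (3755 and 3965 CPM) than in mCherry HFD (2090 and 1664) at log2 1.34, held in every alternative. Pparg, the master regulator of adipocyte formation, stood at 514 and 383, 386 and 366, 427 and 484 and 358 and 374 CPM and passed in no comparison (log2 -0.54, 0.49 and 0.26). These levels were under those of low-UMI barcodes (1605 CPM on average with standard diet and 1466 in TertCi HFD), so Pparg of these nuclei could not be told apart from free RNA. Of 26 genes of the adipogenic list, 2 rose and 6 fell with diet, 6 were higher and 2 lower in Tert HFD, and 8 higher and 2 lower in TertCi HFD (over the 4 clusters 3 up and 4 down, 1 and 3, and 3 and 3 of 24), where the shares of all genes were 13.9% up and 9.10% down, 5.17% and 9.47%, and 10.0% and 16.3%. In the 4 clusters these shares were 9.08% and 5.54%, 3.11% and 6.81%, and 7.45% and 12.2%.

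Of the growth factors, Angpt1 was lowest in mCherry HFD, and Pdgfa and Pdgfb were among the ligands that rose with diet. Of the 5 genes of this list that rose, only 1 met the criteria on level and on low-UMI barcodes that are given with the processing. That 1 was the receptor Pdgfrb, so neither Pdgfa nor Pdgfb met them. The part of free RNA and of other cell types in the rise of these ligands was not tested. Angiopoietin 1 (Angpt1), the ligand of the endothelial receptor Tie2, stood at 347 and 685 CPM with standard diet, 145.8 and 142 in mCherry HFD, 288 and 272 in Tert HFD and 339.9 and 337 in TertCi HFD. Standard diet mouse 2 was the highest library and both mCherry HFD mice the lowest, and Angpt1 fell with diet (log2 -2.11, SE 0.24, edgeR adjusted p = 0.00015) and was higher in TertCi HFD (log2 1.53, SE 0.23, edgeR adjusted p = 0.000867). Its Tert difference (log2 1.17, edgeR adjusted p = 0.00809) was lost without mCherry HFD mouse 1 (1.19) or mouse 2 (1.17). Vegfc, a lymphatic growth factor, stood at 303 and 223, 193 and 107, 395 and 392 and 459 and 449.7 CPM, higher in Tert HFD (log2 1.57) and TertCi HFD (1.87) in every alternative. Its fall with diet (log2 -1.07) was lost without standard diet mouse 1 (-0.76) or mCherry HFD mouse 2 (-0.75) and in the 4 clusters (-0.68). The IGF1 receptor Igf1r stood at 508 and 536, 378 and 339, 563 and 607 and 684 and 714 CPM. Igf1r fell with diet (log2 -0.82) and was higher in Tert HFD (0.92) and TertCi HFD (1.26), the first 2 calls lost without mCherry HFD mouse 2 (-0.77 and 0.87).

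Of the receptors, Pdgfrb, which responds to PDGF-B of endothelium, stood at 80.8 and 109 CPM with standard diet, 329 and 196 in mCherry HFD, 231 and 156 in Tert HFD and 124 and 126 in TertCi HFD. Pdgfrb rose with diet (log2 1.20, edgeR adjusted p = 0.00403), a call lost without mCherry HFD mouse 1 (0.77), and did not pass in Tert HFD (log2 -0.24). In TertCi HFD it was lower (log2 -0.79), a call lost without mCherry HFD mouse 1 or either TertCi HFD mouse and with a UMI floor set per library. It is a pericyte gene as well, and the part of pericyte nuclei in its difference was not tested. The diet difference in the 4 clusters was 1.25. Gpc3, a glypican that binds growth factors, stood at 120 and 60.2 CPM in mCherry HFD, 288 and 377 in Tert HFD and 299.9 and 384 in TertCi HFD, apart by log2 2.04 and 2.17 in all alternatives. The stricter membership rule also ended the calls of Lamc1 for diet (-0.55) and Tert (0.45), Wnt5b for diet (-1.14) and Tert (1.38), Angpt1 for Tert (0.78), Runx2 for Tert (-0.93) and Ltbp4 for TertCi (0.79). Of 33 growth factor genes, 5 rose and 8 fell with diet, 3 were higher and 3 lower in Tert HFD, and 8 higher and 9 lower in TertCi HFD (over the 4 clusters 5 up and 3 down, 3 and 2, and 4 and 8 of 30), beside shares over all genes of 13.9% up and 9.10% down with diet, 5.17% and 9.47% in Tert HFD, and 10.0% and 16.3% in TertCi HFD. In the 4 clusters these shares were 9.08% and 5.54%, 3.11% and 6.81%, and 7.45% and 12.2%.

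Some lipid transporters and enzymes of small signalling molecules were low in mCherry HFD and highest in TertCi HFD, while others of the same lists ran the other way. Abca6, an ABC transporter of the lipid-transporting subfamily, stood at 175 and 178 CPM with standard diet, 88.5 and 74.9 in mCherry HFD, 237 and 179 in Tert HFD and 317 and 298 in TertCi HFD. Its neighbour in the same gene cluster, Abca8b, stood at 272 and 355, 108 and 59.5, 294 and 256 and 326 and 453 CPM. In both genes the mCherry HFD pair lay below all other libraries, with log2 differences for Abca6 of -1.38 with diet, 1.54 in Tert HFD and 2.2 in TertCi HFD, and for Abca8b of -2.13, 1.87 and 2.46. All 6 calls held in every alternative run. These genes are close relatives of the rule gene Abca8a, and reads shared between the copies could be divided among them. Aldh1a1, which makes retinoic acid, stood at 807 and 951, 567 and 366, 966 and 779 and 2072 and 1071 CPM and was higher in TertCi HFD (log2 2.04, SE 0.28, edgeR adjusted p = 0.000527) in every alternative. Its diet call (log2 -1.19) was lost without mCherry HFD mouse 2 (-0.93), and its Tert call (log2 1.10) without mCherry HFD mouse 2 (0.85), Tert HFD mouse 1 (1.08) or mouse 2 (1.15) and in the 4 clusters (0.72). Hsd11b1, which regenerates active glucocorticoid, stood at 29.9 and 16.8 CPM in mCherry HFD, 71.9 and 71.8 in Tert HFD and 127 and 127 in TertCi HFD (log2 1.72, not called under the stricter rule at 1.14, and 2.64). Of 31 lipid genes, 5 rose and 6 fell with diet, 5 were higher and 3 lower in Tert HFD, and 5 higher and 7 lower in TertCi HFD, and of 25 retinoid and steroid genes 3 rose and 5 fell, 2 were higher and 1 lower, and 6 were higher and 2 lower. All genes gave 13.9% up and 9.10% down with diet, 5.17% and 9.47% in Tert HFD, and 10.0% and 16.3% in TertCi HFD. In the 4 clusters the lipid counts were 3 up and 5 down, 4 and 2, and 5 and 7 of 30, and the retinoid and steroid counts 2 and 3, 2 and 1, and 5 and 1 of 25. All genes there gave 9.08% up and 5.54% down, 3.11% and 6.81%, and 7.45% and 12.2%. The cholesterol exporter Abcg1 and the lysosomal sterol carrier Npc2 were among the lipid genes that rose with diet and were lower in TertCi HFD, as was the retinal reductase Dhrs3 of the other list. No gene of either list that rose with diet reached both 30 CPM and 1.5 times the low-UMI level in mCherry HFD. The same held for those lower in TertCi HFD. The part of free RNA and of macrophages in these genes was not tested.

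Guidance cues, which direct axons and vessels, were also tested. Netrin 1 (Ntn1) stood at 197 and 198 CPM with standard diet, 84 and 83.3 in mCherry HFD, 198 and 200 in Tert HFD and 168 and 186 in TertCi HFD. The mCherry HFD pair was below every other library, and Ntn1 differed by log2 -1.52 with diet (SE 0.17), 1.45 in Tert HFD and 1.37 in TertCi HFD in all alternatives. The netrin receptor Unc5c fell with diet from 51.5 and 40.5 to 5.6 and 5.6 CPM (log2 -3.31, SE 0.46, edgeR adjusted p = 0.00053) and stayed as low in Tert HFD (3.67 and 0 CPM) and TertCi HFD (2.7 and 6.09), where it did not pass (log2 -0.83 and -0.24). Of 26 guidance genes, 1 rose and 7 fell with diet, 6 were higher and 0 lower in Tert HFD, and 7 higher and 0 lower in TertCi HFD. Of all genes, 13.9% rose and 9.10% fell with diet, 5.17% were higher and 9.47% lower in Tert HFD, and 10.0% higher and 16.3% lower in TertCi HFD. Of 25 such genes over the 4 clusters, 3 rose and 4 fell with diet, 2 were higher in Tert HFD and 3 in TertCi HFD, and 0 were lower in either. All genes there gave 9.08% up and 5.54% down with diet, 3.11% and 6.81% in Tert HFD, and 7.45% and 12.2% in TertCi HFD.

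Some of the largest falls with diet over all genes were uneven between mice. Among genes of at least 30 CPM in the higher group and 1.5 times the level of low-UMI barcodes, Mdga2, Grm7 and Kcnd2, which encode neuronal adhesion, receptor and channel proteins, headed the falls, but 201, 235 and 353 CPM of these came from standard diet mouse 2 against 12.4, 7.99 and 38.2 in mouse 1. Grm7 and Kcnd2 were among the leading genes of the cluster of 116 nuclei that came wholly from that mouse, 16.2% of its members, and Mdga2 of the cluster of 43, of which it gave 83.7%. Tmem108 rested on mouse 1 (154 CPM against 19.4), and Hpse2 on mouse 2 (113 against 19.5). Tmem108 was the first leading gene of the mesothelial cluster. Standard diet mouse 1 gave 43.2% of the nuclei of that cluster, which held 11.9% of the members of that mouse. Without standard diet mouse 2 the Grm7 difference was -2.40 and the Hpse2 difference -1.99, neither of them called, nor was Hpse2 without mCherry HFD mouse 1 (-2.92), and the Tmem108 difference was -2.45 without standard diet mouse 1 and -4.89 without mCherry HFD mouse 1, also not called. More evenly, Rtl4, a retrotransposon-derived gene, fell from 145 and 278 to 17 and 14 CPM and the collagen galactosyltransferase Colgalt2 from 31.1 and 41.7 to 4.05 and 7.7. Taco1, an activator of mitochondrial translation, went from 1062 and 759 to 73.1 and 166 CPM (not called without mCherry HFD mouse 1, log2 -2.75), and Adamts19 and Unc5c, given above, complete the 10 falls. The 10 largest rises were Egfros, Tnc, Orc1, Fam227b, Sox5os4, Pard3bos1, Cyp4b1, Mmp11, Frem1 and Gucy1b1, between log2 2.90 and 4.50. Egfros, Fam227b and Frem1 were among the leading genes of the cluster of 872 nuclei. That cluster held 45.3% and 38.9% of mCherry HFD members and drew 73.2% of its nuclei from mouse 1 of that group. The Frem1 call was lost without standard diet mouse 1 (log2 2.33) or mCherry HFD mouse 1 (2.32). Fam227b stood at 3.55 and 9.98 against 132 and 145 CPM, and Orc1, of the origin recognition complex, had 0 and 5 UMIs with standard diet against 206 and 52. Egfros, Sox5os4 and Pard3bos1 are antisense genes, and because strand use in the counting is not stated their reads cannot be told apart from those of Egfr, Sox5 and Pard3b.

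**Figure D4:**
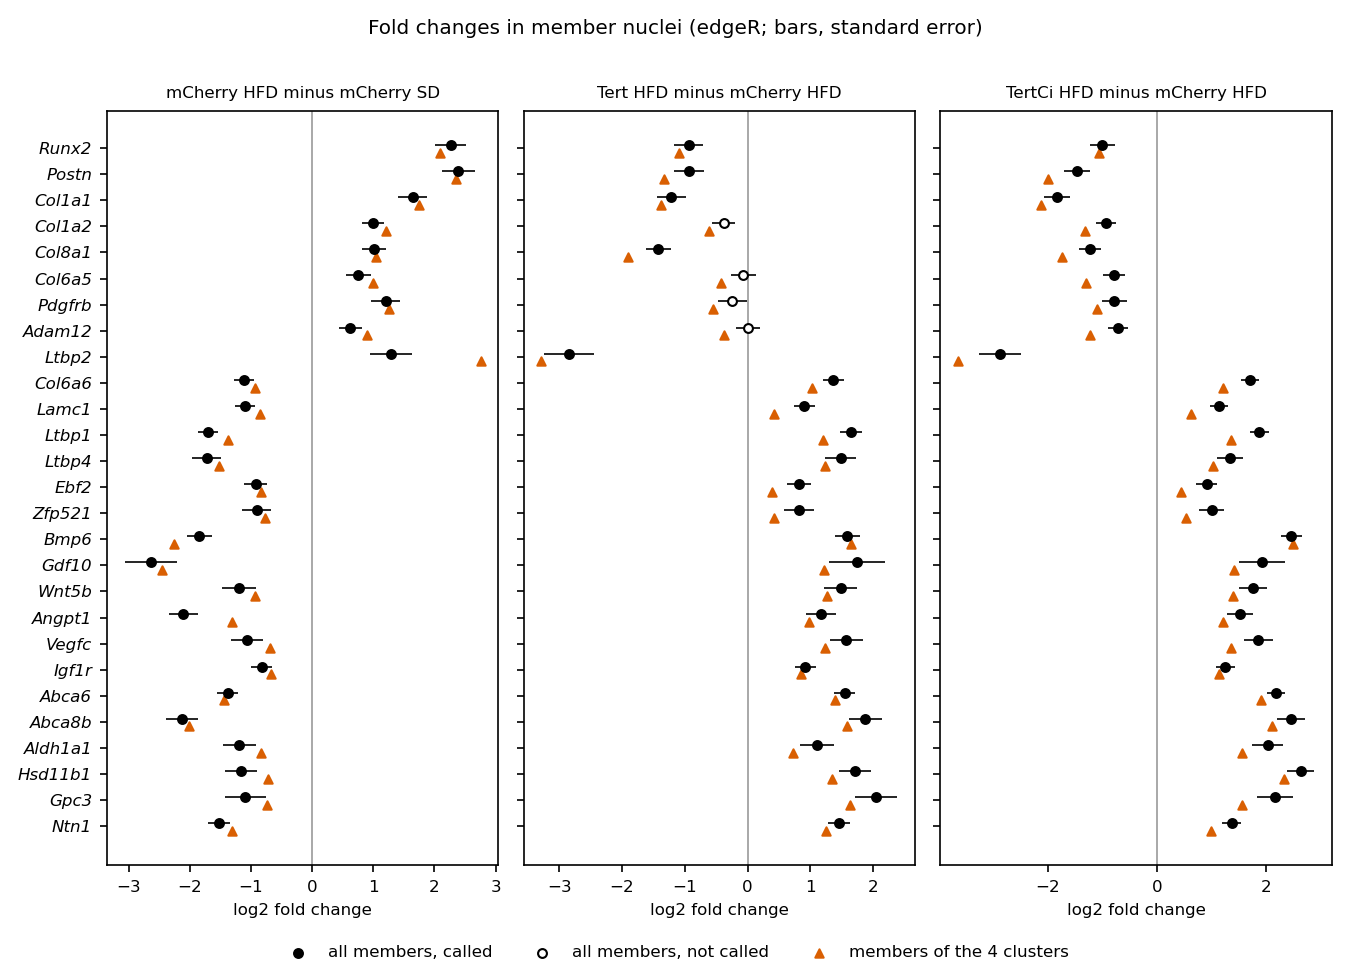
Log2 difference of 27 genes in members for diet (mCherry HFD minus standard diet), Tert HFD minus mCherry HFD and TertCi HFD minus mCherry HFD; filled circles are called by edgeR, open circles are not, bars are SE and triangles are the values over the 4 progenitor clusters. Ltbp1 is at -1.70, 1.64 and 1.88 and Abca8b at -2.13, 1.87 and 2.46 in the 3 panels, which share the mCherry HFD pair.

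Among the largest rises in Tert HFD and TertCi HFD were genes well covered by UMIs. Dchs2, an atypical cadherin of planar polarity, stood at 242 and 226 CPM with standard diet, 71.7 and 60.2 in mCherry HFD, 344 and 342 in Tert HFD and 459 and 439.8 in TertCi HFD. Pairs were tight and did not overlap: mCherry HFD lay lowest, standard diet next, then Tert HFD, then TertCi HFD. Dchs2 fell with diet (log2 -2.09, SE 0.18, edgeR adjusted p = 5.19e-05) and was higher in Tert HFD (log2 2.57, SE 0.18, edgeR adjusted p = 0.000107) and TertCi HFD (log2 3.05, SE 0.18, edgeR adjusted p = 8.96e-06). Amph stood at 145.6 and 155, 36.6 and 30.8, 169.7 and 159 and 248 and 203 CPM, with differences of -2.41, 2.46 and 3.02. Thsd7a, a thrombospondin repeat protein of vessels, stood at 2017 and 1846, 680.1 and 601, 2150 and 2414 and 3538 and 2669 CPM, with differences of -1.88, 2.06 and 2.57. All 9 calls of these genes held in every alternative, and in the 4 clusters the Dchs2 differences were -2.06, 2.26 and 2.67. Levels in low-UMI barcodes were far below those of members (78.7 CPM for Dchs2, 40.5 for Amph and 476 for Thsd7a in TertCi HFD).

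The remaining rises in Tert HFD by the same criteria were Tll2, Taco1, Shisa6, Colgalt2, Rtl4, Kcnn3 and Lvrn, between log2 2.18 and 4.19. In TertCi HFD they were Tll2, Colgalt2, Taco1, Shisa6, Rtl4, Kcnn3, Lvrn and Prex2, a Rac exchange factor, between 2.72 and 5.07. Shisa6, known as a partner of glutamate receptors, stood at 7.99 and 13.5 CPM with standard diet, 8.25 and 6.3 in mCherry HFD, 34 and 77.5 in Tert HFD and 48.3 and 60.9 in TertCi HFD. It was low in both mCherry groups and higher in both Tert alleles (log2 2.97 and 3.11), as Tll2 was, but under the stricter rule its Tert difference was 2.07 and not called. Colgalt2 stood at 28.8 and 33.8 CPM in Tert HFD and 56.1 and 80.7 in TertCi HFD (log2 2.77 and 4.03). Lvrn, an aminopeptidase, was lost in Tert HFD without mCherry HFD mouse 1 (log2 1.79), Taco1 likewise (2.90; 352 and 1694 CPM in Tert HFD, so that its log2 difference of 3.42 rested in part on mouse 2 and was 1.72 without that mouse), and Kcnn3, a potassium channel, without mCherry HFD mouse 1 (1.33), Tert HFD mouse 1 (2.10) or mouse 2 (2.37), with DESeq2 (1.98), under the stricter rule (1.81) and with a UMI floor set per library (1.86). In TertCi HFD Kcnn3 was lost without mCherry HFD mouse 1 (1.93) or TertCi HFD mouse 2 (2.21) and under the stricter rule (1.85).

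The largest falls against mCherry HFD in Tert HFD were Tnc, Egfros, Orc1, Ltbp2, Fam227b, Pard3bos1, Frem1, Ccdc73, Sntg1 and Sox5os4, between log2 -3.45 and -2.13. In TertCi HFD they included Fam227b, Egfros, Orc1, Ltbp2, Pard3bos1, Nfasc, Piezo2, Sox5os4 and Ccdc73, between -3.94 and -2.54. Without mCherry HFD mouse 1 the Tert differences of Frem1 (-1.70), Ccdc73 (-2.15) and Sox5os4 (-2.19) were not called. Frem1 was also lost without mCherry HFD mouse 2 (-2.68), Tert HFD mouse 1 (-1.39) or mouse 2 (-2.92), and Sox5os4 without mCherry HFD mouse 2 (-2.19) or Tert HFD mouse 2 (-1.56). Sntg1 was lost without mCherry HFD mouse 2 (-1.63), Tert HFD mouse 1 (-1.89) or mouse 2 (-2.55). With DESeq2 the Tert differences of Frem1, Sntg1 and Sox5os4 and the TertCi difference of Sox5os4 were not called. The stricter rule ended the Tert calls of Frem1 (-2.16) and Sntg1. Removing the highest doublet scores ended that of Frem1 (-2.32), and a UMI floor set per library that of Sntg1. The TertCi differences of Nfasc and Sox5os4 were not called without TertCi HFD mouse 2 (-2.56 and -2.18), nor that of Nfasc without mouse 1 (-2.59). Fam227b stood at 22.9 and 11.3 CPM in Tert HFD and 7.21 and 7.61 in TertCi HFD, against 3.55 and 9.98 with standard diet and 132 and 145 in mCherry HFD. Piezo2, a mechanosensitive channel, stood at 60.4 and 64.6 CPM with standard diet, 179 and 142 in mCherry HFD, 64.8 and 22.5 in Tert HFD and 23.1 and 20.6 in TertCi HFD. TertCi HFD was below every other library but 1 of Tert HFD, and Piezo2 was lower there than in mCherry HFD (log2 -2.58, SE 0.30, edgeR adjusted p = 0.000245) in every alternative.

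Several well-known stromal genes also passed, but their mean levels in mCherry HFD were no higher than in its low-UMI barcodes. The calcification inhibitor Mgp went from 38.2 and 51.7 CPM with standard diet to 311 and 210 in mCherry HFD, with 64.5 and 15.5 in Tert HFD and 40.8 and 38.8 in TertCi HFD, against 269.9 CPM in low-UMI barcodes of mCherry HFD. Col1a1 stood at 452 and 338 CPM in mCherry HFD (low-UMI 453), Runx1 at 532 and 705 (757) and Fgfr2 at 504 and 514 (575). The growth hormone receptor Ghr stood at 3859 and 2759 CPM with standard diet and 832 and 901 in mCherry HFD, against 9579 and 1026 in low-UMI barcodes. Each of these passed with diet (log2 2.26 for Mgp, 1.64 for Col1a1, 1.65 for Runx1, 1.61 for Fgfr2 and -2.23 for Ghr), and what the member nuclei themselves contributed was not tested.

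Inflammatory and complement genes that passed in TertCi HFD were all lower than in mCherry HFD. Of 18 fibroinflammatory genes tested, 2 rose and 0 fell with diet, 0 were higher and 1 lower in Tert HFD, and 0 higher and 5 lower in TertCi HFD, where 16.3% of all genes were lower. The alarmin Il33 stood at 11.6 and 31.1 CPM with standard diet, 73 and 55.3 in mCherry HFD, 25.4 and 5.63 in Tert HFD and 13.5 and 20.6 in TertCi HFD. Both mCherry HFD mice were highest, but the diet difference of 1.28 did not pass (edgeR adjusted p = 0.052). Its falls in Tert HFD (log2 -1.63) and TertCi HFD (-1.70) were each lost when any of several libraries was left out, among them mCherry HFD mouse 1 (-1.43 and -1.45), mCherry HFD mouse 2 for Tert (-1.81) and TertCi HFD mouse 1 for TertCi (-1.30). Of 14 complement genes, 3 rose and 1 fell with diet, 0 were higher and 1 lower in Tert HFD, and 0 higher and 4 lower in TertCi HFD. Of all genes, 13.9% rose and 9.10% fell with diet, and 9.47% were lower in Tert HFD. Over the 4 clusters, 5 of 10 complement genes rose and 0 fell with diet, 0 were higher and 2 lower in Tert HFD, and 0 higher and 6 lower in TertCi HFD, where 9.08% of all genes rose with diet, 6.81% were lower in Tert HFD and 12.2% lower in TertCi HFD. The fibroinflammatory counts there were 3 up and 0 down, 0 and 2, and 0 and 5 of 15. Over all members, 5 fibroinflammatory genes were lower in TertCi HFD. Of these only Il33 reached both 30 CPM and 1.5 times the low-UMI level in mCherry HFD. No complement gene lower in TertCi HFD did, nor any gene of either list that rose with diet. Macrophage markers in members were highest in mCherry HFD as well (2431 and 3155 CPM in sum). The part of free RNA and of macrophages in these counts was not tested.

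Tert HFD and TertCi HFD were also compared directly, which asks whether the 2 alleles differ under high fat diet. No gene of 12383 was called by edgeR (0%), the smallest adjusted p being 0.340, although 759 genes had an unadjusted p under 0.05. DESeq2 called 6 and gave no adjusted p for 9129. Among the genes described here, the TertCi HFD pair was higher for Aldh1a1 (966 and 779 against 2072 and 1071 CPM) and Hsd11b1 (71.9 and 71.8 against 127 and 127). A p that misses the threshold does not show that both alleles act alike. The log2 difference (Tert HFD minus TertCi HFD) was -0.48 (SE 0.17) for Dchs2, -0.55 (SE 0.17) for Amph, -0.24 (SE 0.16) for Ltbp1, -0.93 (SE 0.27) for Aldh1a1 and -0.93 (SE 0.24) for Hsd11b1.

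The change with group was next compared between members and Dpp4 Pi16 nuclei of the same mice, with the library as a block. Few genes differed: of 15664 tested, 110 (0.702%) for diet, 28 (0.179%) more positive in members and 82 (0.523%) more negative, 27 (0.172%) for Tert and 52 (0.332%) for TertCi. For Tert 19 (0.121%) were more positive in members and 8 (0.0511%) more negative, and for TertCi 38 (0.243%) and 14 (0.0894%). Over the 4 clusters the split was 127 more positive and 99 more negative for diet, 102 and 51 for Tert, and 192 and 164 for TertCi, so that of diet turned over. In that setting only the members were limited to the clusters, and the Dpp4 Pi16 nuclei were kept whole. In mCherry HFD the 12 macrophage markers then summed to 745 and 1051 CPM in members and 2920 and 2941 in Dpp4 Pi16 nuclei. The diet count was 55 without standard diet mouse 2, 171 without TertCi HFD mouse 1 and 188 without TertCi HFD mouse 2. The Tert count was 48 to 70 without either standard diet mouse, mCherry HFD mouse 2 or either TertCi HFD mouse, and the TertCi count was 81 to 107 without either standard diet mouse, either mCherry HFD mouse, Tert HFD mouse 2 or TertCi HFD mouse 1. Members were shallower than Dpp4 Pi16 nuclei and held the macrophage and adipocyte markers given above, and the part of both in these differences was not tested.

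Pappa, the protease that frees IGF from its binding proteins, changed differently in the 2 classes in all 3 comparisons. In members it stood at 74.6 and 197 CPM with standard diet, 46.2 and 60.2 in mCherry HFD, 95.4 and 67.6 in Tert HFD and 98.8 and 81.4 in TertCi HFD. In Dpp4 Pi16 nuclei of the same mice the values were 28.1 and 87.0, 70.6 and 62.6, 41.8 and 25, and 34.3 and 42.0 CPM. Members were thus lowest in mCherry HFD, where Dpp4 Pi16 nuclei were in the upper part of their range. The difference between classes was -1.73 for diet (SE 0.21, edgeR adjusted p = 2.72e-06), 1.69 for Tert (SE 0.21, edgeR adjusted p = 2.87e-05) and 1.80 for TertCi (SE 0.20, edgeR adjusted p = 2.14e-06), each held in every alternative. In the 4 clusters it was -1.41, 1.37 and 1.23. Within members alone, Pappa fell with diet (log2 -1.66), a call lost without mCherry HFD mouse 1 (-1.44), and was not called in Tert HFD. Its TertCi difference (log2 1.09) lost the call in the 4 clusters and without any 1 of the mCherry HFD or TertCi HFD mice.

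Piezo2 fell further in members than in Dpp4 Pi16 nuclei. Dpp4 Pi16 nuclei stood at 48.0 and 64.6 CPM with standard diet, 103 and 69.2 in mCherry HFD, 92.6 and 40.2 in Tert HFD and 52.0 and 64.6 in TertCi HFD, a narrower range than the member values given above. The difference was -2.15 for TertCi (SE 0.20, edgeR adjusted p = 6.77e-08), held in every alternative, and -1.41 for Tert, lost without Tert HFD mouse 1 (-1.66). Bmp6 was the reverse for TertCi: Dpp4 Pi16 nuclei stood at 265 and 217 CPM in mCherry HFD and 451 and 298 in TertCi HFD, a smaller rise than from 32.2 and 44.1 to 162 and 172 in members (difference 1.68, SE 0.19, edgeR adjusted p = 2.57e-06, held in every alternative). Gcnt2, a glycosyltransferase, stood in members at 74.6 and 45.8 CPM with standard diet and 149 and 155 in mCherry HFD, and in Dpp4 Pi16 nuclei at 97.6 and 76.9 and at 58.4 and 80.1. The difference between classes was 1.71 (SE 0.23, edgeR adjusted p = 1.52e-05) and held in every alternative, while the diet call in members alone was lost without standard diet mouse 2 (log2 0.62), mCherry HFD mouse 1 (1.10) or mouse 2 (1.01) and under the stricter rule (0.90).

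Adamts19 stood at 108 and 64.6 CPM in Dpp4 Pi16 nuclei with standard diet and 32.6 and 43.2 in mCherry HFD, and the diet difference was larger in members, by -2.19 (SE 0.27, edgeR adjusted p = 4.15e-06), a call lost under the stricter rule (-2.23). Il33 differed for TertCi by -1.49 (edgeR adjusted p = 0.00417), and this was lost without mCherry HFD mouse 1 (-1.11) or TertCi HFD mouse 1 (-1.29). Col8a1 differed for Tert by -0.99, which was lost without Tert HFD mouse 1 (-0.22). Adgrl3 differed for diet by 2.02, but its member UMIs lay mostly outside the 4 clusters, where the difference was 0.53. Thus, among the 10 genes named for each comparison, the differences of Pappa, Piezo2 for TertCi, Bmp6 and Gcnt2 held in all settings. The others of these 10 are listed in the closing section, and further called differences are not listed.

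**Figure D5:**
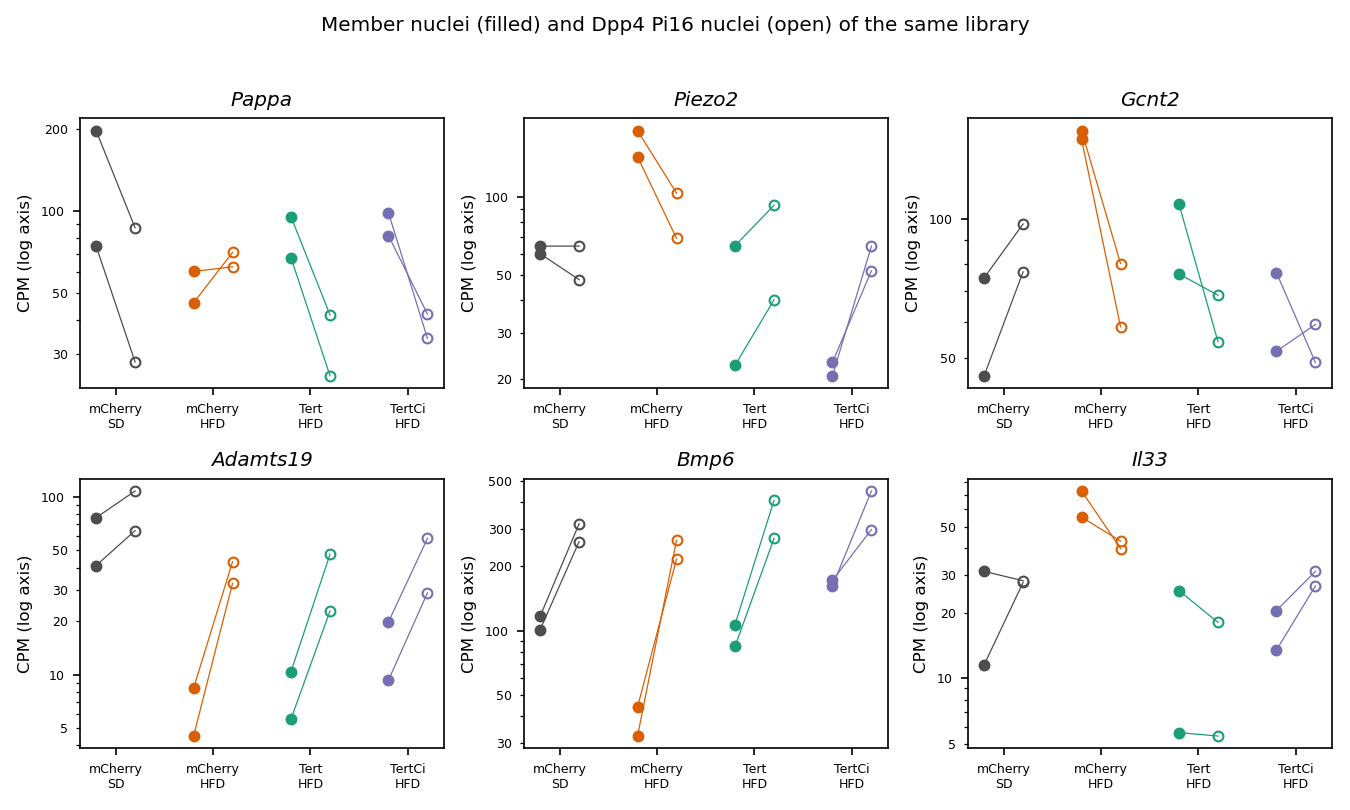
Level (CPM, log axis) of Pappa, Piezo2, Gcnt2, Adamts19, Bmp6 and Il33 in member nuclei and in Dpp4 Pi16 nuclei by group; points are libraries, and lines join both classes of a library. Pappa is lowest in mCherry HFD in members (46.2 and 60.2 CPM) but not in Dpp4 Pi16 nuclei.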

How the data were processed

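The deposited files are raw UMI counts per barcode and gene for 8 libraries (56749 features), which the authors made with Cell Ranger, 7.1.0 per the file headers and 5.0.1 per the submitters' processing notes, which also name bcl2fastq 2.20.0 and the mm39 build. Whether introns or strand entered the counting is not given in the sources used here. The labels' protocols describe frozen visceral fat and sorted nuclei loaded at 5000 to 10000, whereas the series text speaks of stromal cells, and the labels were followed. Some libraries held more passing barcodes than were loaded.

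Barcodes passed at 1000 UMIs, 300 genes and 5% mitochondrial UMIs. Members and Dpp4 Pi16 nuclei were then taken by detection of the genes listed in the report. Scrublet's automatic threshold marked at most 0.022% of barcodes in 7 libraries, where it did not work, and 15.6% in TertCi HFD mouse 1, so no doublets were removed by it and removing the highest scores (0.8% per 1000 nuclei) in every library was run as an alternative. UMIs were summed per library over member nuclei and tested with edgeR 4.0.16 in R 4.3.3 (TMM, filterByExpr, quasi-likelihood F test, 1 fit over all 8 libraries), with Benjamini-Hochberg adjustment over 12383 genes. The 25 rule genes were left out of counts. Library sizes were 710153 to 6425777 UMIs, so a gene at 10 CPM rests on few UMIs in the smallest. The difference between classes was an interaction term with the library as a block. Shares were compared by an exact permutation test. Clusters came from scanpy 1.11.5 (2000 variable genes, 30 components, 15 neighbours, resolution 0.5).

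Genes are named from 31 gene lists, from the 10 largest called rises and falls per comparison without overlap between groups, with at least 30 CPM and 1.5 times the level of barcodes of 10 to 100 UMIs, and from the 10 largest called differences between classes. A result that needs a withheld item is not reported here. Members, lists and tests were chosen with earlier results of these data known. Alternatives were DESeq2 1.42.0, DESeq2 size factors, no filter on low counts, thinning to 1000 UMIs, a stricter membership (4 progenitor genes and no Dpp4 Pi16 gene), a floor of 2000 UMIs for shares, removal of high doublet scores and leaving out each library. 2 more, a UMI floor per library and the 4 progenitor clusters, were chosen after the data had been seen. Groups share no replicate numbers and batches are not recorded, so neither entered a fit.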

Additional observations from a re-analysis of the deposited data

Results flagged for a closer look

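These genes stood out because their change with diet or with a Tert allele differed between member nuclei and Dpp4 Pi16 nuclei of the same mice in an interaction term (edgeR, library as a block). Only the 10 genes named for each comparison are given. Values are the member log2 difference minus the Dpp4 Pi16 log2 difference, and the 3 comparisons share the mCherry HFD mice. For values in the 4 progenitor clusters only the members were limited to the clusters, and the Dpp4 Pi16 nuclei were kept whole.

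For diet, members changed more in the negative direction for Grm7 (-3.86), Pdzrn4 (-3.06), Hpse2 (-2.48), Adamts19 (-2.19), Mapk10 (-2.12), Dkk2 (-1.73) and Pappa (-1.73), and more in the positive direction for Slc16a12 (2.37), Adgrl3 (2.02) and Gcnt2 (1.71). In the 4 progenitor clusters Adamts19 (-2.16), Pappa (-1.41) and Gcnt2 (2.55) were still called, and Grm7 (0.15), Pdzrn4 (0.41), Mapk10 (0.89), Hpse2 (-0.30), Dkk2 (-0.96), Slc16a12 (1.51) and Adgrl3 (0.53) were not. Grm7 and Hpse2 were high in standard diet mouse 2 alone and lost the call without it. Pdzrn4 (95 and 5.28 CPM with standard diet) and Mapk10 (61.3 and 8.81) were high in standard diet mouse 1 alone and lost the call without it (-0.74 and -1.45). Pdzrn4 was among the leading genes of the mesothelial cluster, of which that mouse gave 43.2% of nuclei. The calls of Mapk10 (-2.07), Dkk2 (-1.96) and Slc16a12 (1.51) were lost without mCherry HFD mouse 1, and that of Dkk2 also without standard diet mouse 1 (-1.25).

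For Tert, members were more positive for Pappa (1.69), Lvrn (1.21), the matrix gene Vit (1.15), Rcan2 (0.93), Ltbp1 (0.76), Kazn (0.75), Thsd7a (0.72) and Scara5 (0.69), and more negative for Piezo2 (-1.41) and Col8a1 (-0.99). In the 4 clusters Pappa (1.37), Lvrn (1.27), Piezo2 (-2.75) and Col8a1 (-1.49) were called, and Vit (0.71), Rcan2 (0.71), Ltbp1 (0.30), Kazn (0.42), Thsd7a (0.32) and Scara5 (0.29) were not. The calls of Kazn (0.61), Ltbp1 (0.64), Piezo2 (-1.66), Col8a1 (-0.22) and Vit (1.17) were lost without Tert HFD mouse 1, those of Rcan2 (0.59) and Scara5 (0.57) without Tert HFD mouse 2, and that of Lvrn (0.93) without mCherry HFD mouse 1.

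For TertCi, members were more positive for Pappa (1.80), Bmp6 (1.68), Colgalt2 (1.41), the adhesion genes Lsamp (1.19) and Opcml (1.08), Adamtsl3 (0.97) and Scara5 (0.95), and more negative for Piezo2 (-2.15), Clstn2 (-1.56) and Il33 (-1.49). In the 4 clusters Pappa (1.23), Bmp6 (1.67), Piezo2 (-3.03) and Il33 (-2.07) were called, and Colgalt2 (0.94), Lsamp (0.77), Opcml (0.53), Adamtsl3 (0.58), Scara5 (0.37) and Clstn2 (-0.92) were not. The calls of Clstn2 (-1.15), Colgalt2 (0.71), Lsamp (1.27) and Il33 (-1.11) were lost without mCherry HFD mouse 1, and Colgalt2 also without TertCi HFD mouse 1 (1.21), as was Il33.

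With DESeq2 the calls of 7 of the 10 diet differences (Grm7, Pdzrn4, Hpse2, Mapk10, Dkk2, Slc16a12 and Adgrl3), 8 of the 10 Tert differences (Lvrn, Vit, Rcan2, Ltbp1, Kazn, Thsd7a, Scara5 and Col8a1) and 4 of the 10 TertCi differences (Colgalt2, Adamtsl3, Clstn2 and Il33) were lost. The stricter rule ended those of Adamts19, Dkk2, Hpse2, Mapk10 and Pdzrn4 for diet, Ltbp1, Rcan2, Scara5 and Thsd7a for Tert, and Adamtsl3, Clstn2, Colgalt2 and Scara5 for TertCi. A UMI floor set per library ended those of Dkk2 and Slc16a12, of Col8a1, Ltbp1, Lvrn, Rcan2, Scara5 and Thsd7a, and of Adamtsl3, Clstn2, Colgalt2, Il33 and Lsamp in the same order of comparisons. Thinning to 1000 UMIs ended those of Pdzrn4, of Kazn, Lvrn and Piezo2, and of Colgalt2 and Lsamp. Removing the highest doublet scores ended those of Col8a1 for Tert and Colgalt2 for TertCi.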

How the results depend on the processing

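The number of genes called depended on the processing more than the direction of single genes did. Against main counts of 2853 for diet, 1813 for Tert and 3260 for TertCi, DESeq2 called 1782, 1074 and 1960, the stricter membership rule 823, 487 and 983, a UMI floor set per library 1534, 1144 and 2065, and the 4 progenitor clusters alone 1502, 1020 and 2016, the last 2 chosen after the data had been seen. Nuclei thinned to 1000 UMIs gave 1208 for Tert and 2155 for TertCi. For Tert the split of higher and lower calls was 640 and 1173 with edgeR and 520 and 554 with DESeq2. Tert against TertCi had 0 calls with edgeR, 6 with DESeq2 and 82 with no filter on low counts. Differences from Dpp4 Pi16 nuclei, 110 for diet, 27 for Tert and 52 for TertCi, became 17, 4 and 16 with DESeq2, 167, 65 and 105 with no filter, 42, 12 and 29 with the stricter rule, 40, 10 and 15 with the floor, and 226, 153 and 356 in the 4 clusters. For the last counts only the members were limited to the clusters.

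Leaving out 1 library at a time gave 1233 to 3126 genes for diet, 539 to 2225 for Tert, 1282 to 3836 for TertCi and 0 to 0 for Tert against TertCi. The differences from Dpp4 Pi16 nuclei ranged from 55 to 188, 26 to 70 and 68 to 107. The exact permutation p of the share of nuclei ranged from 0.21 to 0.943 and that of the share of progenitors from 0.267 to 0.981. In the 4 clusters, whose sizes the same genes set, these p were 0.0857 and 0.371. A group left with 1 mouse was assumed to vary like the others. The named genes gave 242 called results, of which, over all alternatives, 3414 of 3826 refits kept direction and call, 408 lost the call and 4 changed sign. The last were Kcnn3 for diet with the floor (0.0518) and, in the 4 clusters, the diet differences from Dpp4 Pi16 nuclei of Grm7 (0.15), Mapk10 (0.89) and Pdzrn4 (0.41), none of them called there. Without mCherry HFD mouse 1, 68 results lost their call. The cause was not tested. No paired analysis was possible because the groups share no replicate number. Depth limits what can be said of genes with few UMIs in a library, such as Tnc, Orc1 and Ltbp2.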

Other observations

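Further genes of the member nuclei differed between groups, of which Smoc2 and Hlf are counted in the matrix and the retinoid and steroid lists above. Smoc2, a calcium-binding matricellular protein, stood at 177 and 223 CPM with standard diet, 167 and 128.8 in mCherry HFD, 391 and 286 in Tert HFD and 327 and 468 in TertCi HFD. The 4 libraries with a Tert allele were above all mCherry libraries, and Smoc2 was higher in Tert HFD (log2 1.39, SE 0.22, edgeR adjusted p = 0.0024) and in TertCi HFD (log2 1.71, SE 0.22, edgeR adjusted p = 0.000329) under every alternative. Rcan2, a regulator of the phosphatase calcineurin, stood at 143.9 and 128.6, 54.8 and 44.1, 123 and 162 and 216 and 133 CPM, with log2 differences of -1.72 with diet, 1.69 in Tert HFD and 2.10 in TertCi HFD, all held. Scara5, a ferritin receptor of stromal cells, stood at 525 and 363, 149.7 and 153, 354 and 356 and 671 and 342 CPM and fell with diet (log2 -1.85). Its rise in TertCi HFD (log2 2.04) held, and that in Tert HFD (log2 1.44) was lost without mCherry HFD mouse 1 (1.42) or Tert HFD mouse 2 (1.34) and under the stricter rule. Hlf, a transcription factor with a daily rhythm, stood at 24.9 and 44 CPM with standard diet, 27.1 and 11.9 in mCherry HFD, 28.4 and 25.4 in Tert HFD and 56.7 and 73.8 in TertCi HFD, and was higher in TertCi HFD than in mCherry HFD (log2 1.90, not called under the stricter rule at 1.20). The labels used here give no time of tissue collection.

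Cell cycle, stress and interferon lists gave calls at low levels. Of 13 cell cycle genes tested, 4 rose and 0 fell with diet, 0 were higher and 2 lower in Tert HFD, and 1 was higher and 7 lower in TertCi HFD. Of all genes, 13.9% rose and 9.10% fell with diet, 9.47% were lower in Tert HFD and 16.3% lower in TertCi HFD. Over the 4 clusters 1 of 5 cell cycle genes rose with diet and 1 was lower in TertCi HFD, and with a UMI floor set per library these counts were 2 and 2 of 10. The replication clamp Pcna stood at 2.66 and 5.87 CPM with standard diet, 14.9 and 21 in mCherry HFD, 11.6 and 2.82 in Tert HFD and 4.2 and 4.57 in TertCi HFD, against 35.8 CPM in low-UMI barcodes of mCherry HFD. Of 22 immediate early genes, 2 rose and 2 fell with diet, 0 were higher and 4 lower in Tert HFD, and 0 higher and 9 lower in TertCi HFD (over the 4 clusters 1 and 2, 0 and 2, and 0 and 6 of 20). All genes over the 4 clusters gave 9.08% up and 5.54% down, 3.11% and 6.81%, and 7.45% and 12.2%. Atf3, a stress-induced factor, stood at 3.55 and 3.52, 43.6 and 45.5, 14.4 and 18.3 and 4.8 and 5.33 CPM, again below its 129.5 CPM in low-UMI barcodes of mCherry HFD. Of 21 genes of the p53 and senescence list, 3 rose and 2 fell with diet, 1 was higher and 1 lower in Tert HFD, and 1 higher and 4 lower in TertCi HFD. Of 21 interferon genes, 3 rose and 1 fell with diet, 1 was higher and 1 lower in Tert HFD, and 1 higher and 3 lower in TertCi HFD. The antiviral gene Ifit2, at 29.3 and 21.7 CPM with standard diet, 14 and 11.9 in mCherry HFD, 24.8 and 42.2 in Tert HFD and 36.6 and 33.5 in TertCi HFD, was above its low-UMI level and higher in TertCi HFD than in mCherry HFD (log2 1.70, SE 0.34, edgeR adjusted p = 0.00399), a call lost under the stricter rule (1.48). Of 11 adipocyte markers outside the rule, 0 rose and 10 fell with diet, and of 9 macrophage markers 6 rose and 1 fell. The part of free RNA and of other cell types in these counts was not tested.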
